A study of Mus musculus with 12 samples.

Results

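Antigen presentation genes of the mouse major histocompatibility complex (MHC) were read in K-ras lung tumours of conditional Dnmt3a knockout (KO) mice. These were set against tumours of mice that kept the gene (WT). The members were all probes whose gene name in the array files begins with H2-, together with those named B2m, Tap1, Tap2, Tapbp, Psmb8, Psmb9, Psmb10, Cd74, Ciita or Nlrc5. This rule found 44 of the 27962 gene names on the array (identifiers that stand in for a name included), read by 67 of its 41174 probes. They were 41 class I probes (B2m included), 8 probes of the antigen processing genes, 16 class II probes (Cd74 included), and 2 probes of H2-Ke2 and H2-Ke6, which lie in the same region but code for neither class. No probe carried the name Ciita or Nlrc5. Ciita is present under its old name C2ta, so it falls outside the rule and its values are given as those of a neighbouring regulator. Of the 67 probes, 59 were tested because at least 6 of the 12 arrays had them well above background in one of the genotypes: 34 class I, 8 processing, 15 class II and both others.

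MHC class I molecules sit on nearly every nucleated cell and show peptides from inside the cell to CD8 T cells. Each is a heavy chain (H2-K1 and H2-D1 are the classical ones, the H2-Q, H2-T and H2-M families the non-classical ones) held together with the light chain B2m. Their peptides are cut by the proteasome, in immune settings by a form that carries Psmb8, Psmb9 and Psmb10, pumped into the endoplasmic reticulum by Tap1 and Tap2, and loaded with the help of Tapbp (tapasin). MHC class II molecules are made mainly by dendritic cells, macrophages and B cells, and show peptides from endosomes to CD4 T cells. H2-Aa and H2-Ab1 form one class II molecule, Cd74 is the invariant chain that guards it, H2-DM exchanges its peptide, and Ciita is the transcriptional regulator that class II genes depend on. In lung, alveolar type 2 cells also carry class II.

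The study hybridised KO RNA and WT RNA together on each of 12 two-colour Agilent arrays, with RNA taken from frozen lung tumours of mice of mixed C57/129 strain. In KO mice both copies of Dnmt3a, a de novo DNA methyltransferase, were conditional and were removed only in cells that recombined, and WT mice kept it. Mice of both genotypes carried the LSL-G12D allele of K-ras, and the tumours of both followed adenoviral Cre given through the airways. The virus, and not a cell type promoter, thus set which lung cells recombined, and the tumours were taken as whole tissue. The labels hold 4 combinations of age and sex, called pairs here. In pair A (replicates 1 to 4, slide 1) a male KO mouse of age 47.7 was set against a male WT mouse of age 42.6, in a unit the labels do not give. Pair B (replicates 5 to 8, slide 2) set a male KO mouse of age 27 against a male WT mouse of age 41.3. Pair C (replicates 9 and 10, slide 3) set a male KO mouse of age 27 against a female WT mouse of age 47.6. The KO side of pair C is thus described like that of pair B, and 1 KO mouse may have served both. Pairs B and C are therefore not known to be independent. Pair D (replicates 11 and 12, slide 3) set a male KO mouse of age 29.1 against a male WT mouse of age 37.3. Whether arrays of 1 pair used RNA of different mice is not in the labels, and p-values thus measure only a spread between samples that may be technical. The KO RNA was in Cy5 on both arrays of pair C and in Cy3 on both arrays of pair D, so the mean of either pair holds any dye effect of a probe. Slides 1 and 2 hold 1 pair each, so slide and pair cannot be told apart there. Slide 3 holds pairs C and D, which differ in age, in the sex of the WT mouse and in the dye.

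All 10 alveolar type 2 marker genes and all 6 epithelial marker genes had a tested probe. Of all 41174 probes, 35562 were tested, and the B cell and macrophage lists were as complete. Passing the filter thus does not establish the tissue. On slides 1 and 2, between 85.4% and 89.6% of probes were well above background for KO RNA and between 81.7% and 89.4% for WT RNA. On slide 3 these shares were 59.0% to 70.1% and 62.1% to 72.2%. The 3 Dnmt3a probes were lower in KO RNA, with log2 KO over WT ratios of -0.55, -0.25 and -0.21 (adjusted p = 0.00265, 0.0158 and 0.0217). The labels do not name the exons of Dnmt3a that were cut out, so these probes do not establish the removal. No probe was saturated. The precision of each ratio is limited by how many arrays there are.

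Promoters of 4 class I genes that had a call are shown first, beside B2m and a class II chain. Those of H2-Q2 and Tapbp, which also had a call, are not printed. They were taken from RefSeq on build GRCm38.p6, as 250 bases before and 50 after the annotated start, and 32 of the 44 member names had at least 1 entry. The windows of H2-K1 (chr17:34000284-34000583, minus strand), H2-D1 (chr17:35262844-35263143, plus strand), H2-Q7 (chr17:35438905-35439204, plus strand), H2-T23 (chr17:36032652-36032951, minus strand), B2m (chr2:122147437-122147736, plus strand) and H2-Aa (chr17:34287774-34288073, minus strand) are printed 5′ to 3′ on the gene's strand. Capitals mark every match, on either strand, to GGGGATTCC (a kappaB motif), AANNGAAA (a core read by interferon regulatory factors), TGACG (a core of cyclic AMP response elements) or CCAAT (the box read by NF-Y). A motif on the opposite strand appears as its reverse complement, for example ATTGG for CCAAT, and overlapping matches share their capitals.
H2-K1: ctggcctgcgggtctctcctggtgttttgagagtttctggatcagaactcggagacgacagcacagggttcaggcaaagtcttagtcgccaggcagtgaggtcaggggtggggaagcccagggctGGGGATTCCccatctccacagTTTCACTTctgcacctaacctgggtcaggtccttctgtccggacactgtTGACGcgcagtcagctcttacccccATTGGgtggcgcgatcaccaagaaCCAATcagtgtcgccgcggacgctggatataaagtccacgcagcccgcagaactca
H2-D1: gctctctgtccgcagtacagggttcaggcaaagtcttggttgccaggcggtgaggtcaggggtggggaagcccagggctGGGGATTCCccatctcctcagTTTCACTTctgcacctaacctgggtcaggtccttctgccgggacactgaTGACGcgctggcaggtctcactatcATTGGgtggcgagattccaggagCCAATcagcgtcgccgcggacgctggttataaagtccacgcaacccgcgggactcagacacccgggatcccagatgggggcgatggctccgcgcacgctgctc
H2-Q7: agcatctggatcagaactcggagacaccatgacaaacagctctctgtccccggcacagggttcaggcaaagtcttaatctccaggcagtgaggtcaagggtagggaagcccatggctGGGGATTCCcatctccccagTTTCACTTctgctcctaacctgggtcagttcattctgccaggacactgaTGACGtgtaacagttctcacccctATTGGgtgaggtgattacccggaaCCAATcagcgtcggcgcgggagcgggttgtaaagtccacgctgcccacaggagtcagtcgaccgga
H2-T23: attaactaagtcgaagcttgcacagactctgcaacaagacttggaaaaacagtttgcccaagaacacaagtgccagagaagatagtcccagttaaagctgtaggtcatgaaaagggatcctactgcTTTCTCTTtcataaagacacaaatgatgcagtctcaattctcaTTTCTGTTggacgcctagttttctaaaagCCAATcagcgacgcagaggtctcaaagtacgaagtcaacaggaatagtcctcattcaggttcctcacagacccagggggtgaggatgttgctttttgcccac
B2m: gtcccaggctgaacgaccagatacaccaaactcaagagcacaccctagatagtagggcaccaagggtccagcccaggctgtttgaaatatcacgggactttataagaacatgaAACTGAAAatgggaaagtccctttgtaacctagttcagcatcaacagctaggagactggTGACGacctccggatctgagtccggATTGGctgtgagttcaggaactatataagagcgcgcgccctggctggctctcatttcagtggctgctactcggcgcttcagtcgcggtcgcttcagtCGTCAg
H2-Aa: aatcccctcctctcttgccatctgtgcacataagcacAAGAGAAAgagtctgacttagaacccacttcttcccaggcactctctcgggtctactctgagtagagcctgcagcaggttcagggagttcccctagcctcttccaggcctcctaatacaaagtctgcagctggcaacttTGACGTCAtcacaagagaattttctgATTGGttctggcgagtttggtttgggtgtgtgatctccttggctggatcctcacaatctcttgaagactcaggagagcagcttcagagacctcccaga

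H2-K1, H2-D1 and H2-Q7 held the same order of matches: the kappaB motif, the interferon factor core, TGACG, and CCAAT once on each strand. The kappaB motif began 125 bases before the start in H2-K1, 171 before it in H2-D1 and 133 before it in H2-Q7. H2-T23 held 2 interferon factor cores and 1 CCAAT but neither of the other motifs. Of the called genes not printed, H2-Q2 held 1 interferon factor core and 1 CCAAT, and Tapbp held 2 CCAAT. Neither of them held the kappaB motif or TGACG, and Tapbp held no interferon factor core. B2m held 1 interferon factor core, 2 TGACG and 1 CCAAT. In H2-Aa, TGACG on both strands overlapped 74 and 71 bases before the start, with 1 CCAAT downstream of it, and the kappaB motif did not occur in the window. Over all 32851 promoters of the table, 0.25% held the kappaB motif, 23.9% the interferon factor core, 20.8% TGACG and 37.4% CCAAT. Among 21 promoters of class I members, 4 held the kappaB motif, 13 the interferon factor core, 11 TGACG and 19 CCAAT. H2-K1, H2-M9 and the class II gene H2-DMa have more than 1 entry each, and these count separately here. The 4 entries with the kappaB motif belong to H2-K1, H2-D1 and H2-Q7. The 8 class II promoters held these motifs in 0, 3, 1 and 7 cases, and the 5 promoters of processing genes in 0, 0, 2 and 3. The windows of Psmb9 and Tap1 overlap on opposite strands, and their TGACG and CCAAT matches are the same sites. All matches named here are matches of letters in one window and show no binding.

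Class I and processing transcripts were lower in the KO tumours at 10 of 42 tested probes and higher at 0. The 10 probes were 1 each of H2-D1, H2-D4, H2-K1, H2-Q1, H2-Q2, H2-Q5, H2-Q7, H2-T23, Tap2 and Tapbp, and their log2 KO over WT ratios lay between -0.63 and -0.37. Class II transcripts passed the test at 0 of 15 probes, and 0 had an unadjusted p under 0.05. Each call is a limma adjusted p under 0.05 over all 35562 tested probes, with a dye term and the pair as a random block. Over all tested probes, 2.88% were called lower and 2.83% higher by the same rule, and the median ratio was -0.0026. These shares stand beside every count of called probes or genes given below. With local backgrounds as deposited, 585 probes were called lower and 940 higher, against 1025 and 1007 here, and the class I and processing calls numbered 10 in both. The 42 class I and processing probes had a median ratio of -0.17, with 38 below 0 and 19 at an unadjusted p under 0.05. Over all 35562 tested probes, 18198 were below 0 and 7455 had an unadjusted p under 0.05. The 34 class I probes alone had a median of -0.21 with 30 below 0, and the 15 class II probes a median of 0.052 with 14 above 0. How much of this is fewer cells of a type and how much less RNA per cell cannot be told apart in whole tissue.

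The calls were close to the threshold, and their number moved with single arrays. It was 1 without replicate 3 or without replicate 12, 2 without replicate 1, 4 without replicate 8 or 9, 5 without replicate 6 and 6 without replicate 2, 4, 7 or 11. It was 15 without replicate 10 and 19 without replicate 5. No class I or processing probe was called without pair A, without pair D, within a single slide, with trend and robust variances or under median centring of the arrays in place of loess. With the mean of each pair as the unit (n = 4, where B and C may share a KO mouse) only H2-D1 was called. In pairs A and B alone only Tap2 was called. The direction did not change: each of the 10 called probes stayed below 0 under every alternative run, those within 1 slide included. Another 7 class I probes lay just outside, with adjusted p from 0.0519 to 0.0628 and ratios from -0.55 to -0.25.

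**Figure D1:**
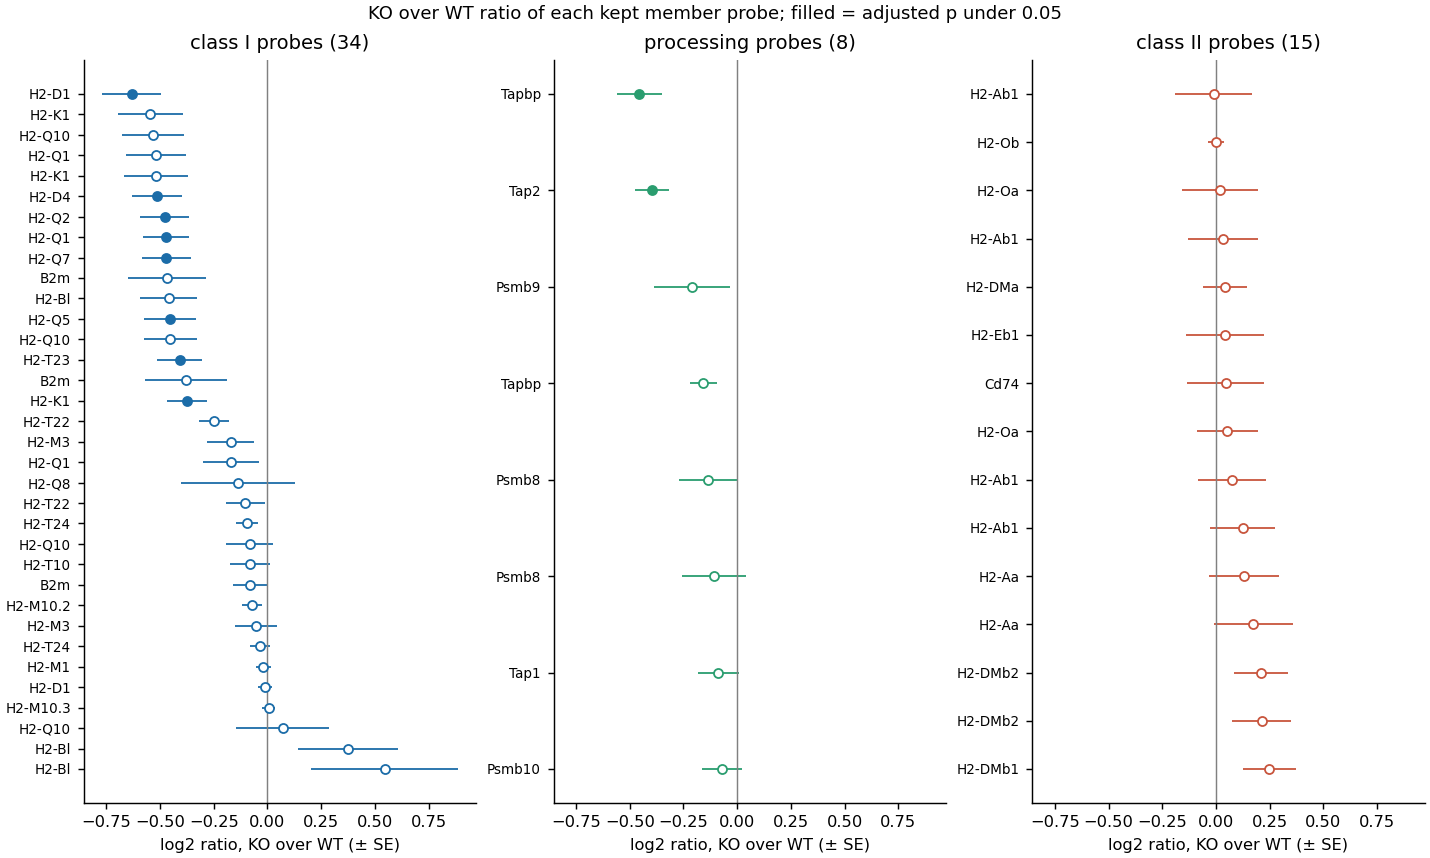
Log2 KO over WT ratio (x axis, ± SE, n = 12 arrays) of the 34 class I, 8 processing and 15 class II probes tested, 1 row per probe named by its gene, filled where the limma adjusted p was under 0.05. The filled points are the 8 class I and 2 processing probes called lower, and all 15 class II ratios lie between -0.01 and 0.25.

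Of 6 probes of the classical heavy chains and H2-D4, 3 were lower in KO tumours, 1 for each gene. H2-D1, 1 of the classical genes of these strains, had log2 levels of 13.55, 13.74 and 14.14 (lowest, median and highest of 12 arrays) in KO RNA, against 13.81, 14.48 and 15.03 in WT RNA. The ranges overlapped, as they did at all 59 tested member probes, but within arrays the KO level was below the WT level on 11 of 12. Its ratio was -0.63 ± 0.14 (SE, n = 12, limma adjusted p = 0.0247), a level 1.55-fold lower, with single arrays from -1.45 (replicate 7) to 0.00 (replicate 2). The mean was -0.55, -0.72, -0.64 and -0.62 in pairs A to D. This probe lies at chr17:33361850-33362082 on build mm7, the build of the array files. Whether it lies in a UTR or in coding sequence was not looked up, for this or any probe, since no mm7 annotation was used here. A second probe named H2-D1 is described in the file as a TL antigen mRNA and gave -0.01 ± 0.034 (adjusted p = 0.893).

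H2-K1, the other classical gene, had 3 probes. The one that passed the test (chr17:32077868-32078115, mm7) had log2 levels of 11.77, 12.35 and 12.72 in KO RNA, against 12.37, 12.65 and 13.45 in WT RNA, and a ratio of -0.37 ± 0.093 (adjusted p = 0.0397). This probe was below 0 on 9 of 12 arrays, with means of -0.48, -0.36, -0.56 and -0.02 in pairs A to D. With single arrays left out, it was called in 2 of 12 fits. The brightest one (chr17:32074445-32074504) had levels of 15.63, 16.01 and 16.85 in KO RNA, against 15.98, 16.58 and 17.11 in WT RNA. Its ratio was larger, -0.55 ± 0.15, and below 0 on 11 of 12 arrays, but it did not pass (adjusted p = 0.0562). Replicate 5, at 0.68, was the only array above 0, and without it the adjusted p was 0.00452 with a ratio of -0.66. The third probe stood at -0.52 ± 0.15 (adjusted p = 0.0628). The probe named H2-D4 (chr17:33359261-33359314) fell by 0.51 ± 0.12 on the log2 scale (adjusted p = 0.0268), on 10 of 12 arrays. The 6 classical probes had a median ratio of -0.52.

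B2m, the light chain that every class I molecule needs at the surface, did not pass the test. Its probe at chr2:121893642-121893698 (mm7) had log2 levels of 12.77, 13.55 and 14.55 in KO RNA, against 13.45, 14.20 and 14.79 in WT RNA. The ratio was -0.47 ± 0.18 (adjusted p = 0.162), below 0 on 9 of 12 arrays. A second, brighter probe in the same stretch gave -0.38 ± 0.19 (adjusted p = 0.288), below 0 on 10 arrays. Replicate 5 stood apart at both, at 0.98 and 1.28, and without it the brighter probe was called lower (-0.53, adjusted p = 0.0180). The third B2m probe, at chr2:121889716-121889775, gave -0.08 ± 0.082 with KO RNA well above background on 11 arrays.

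**Figure D2:**
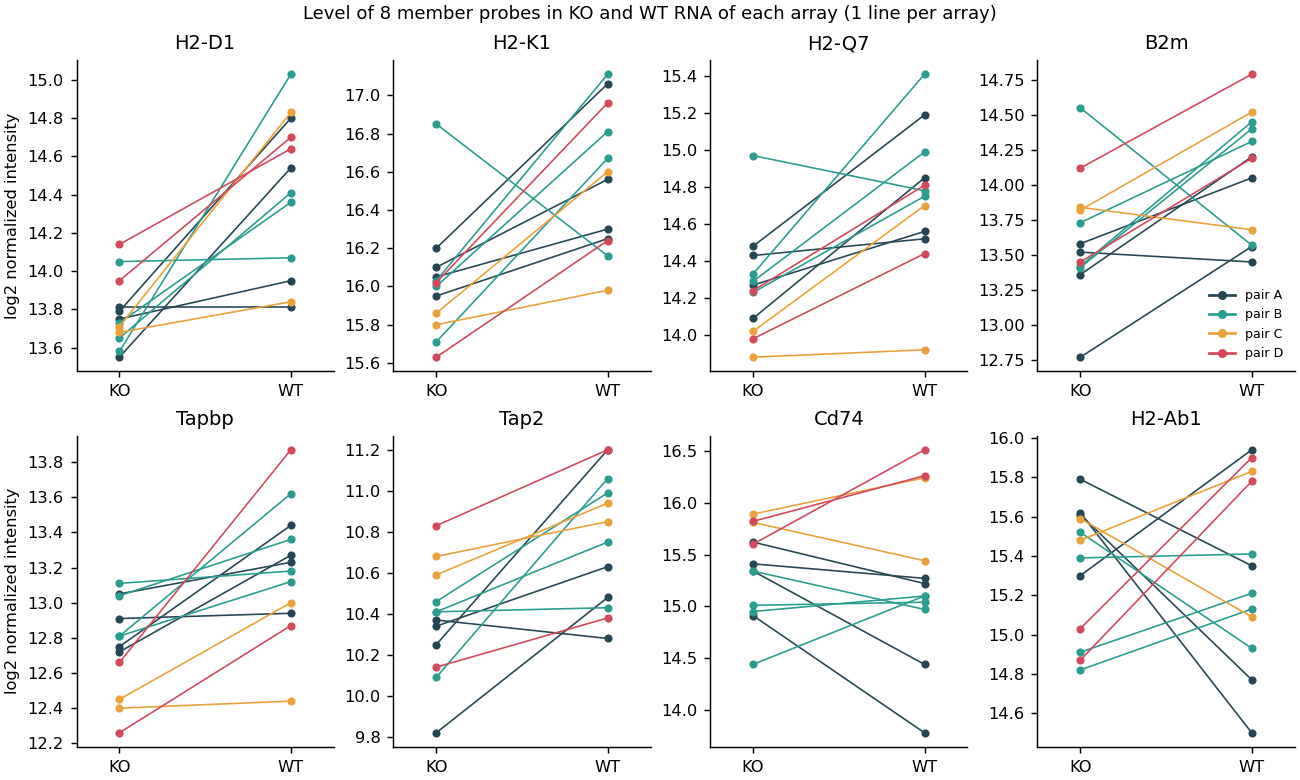
Log2 normalized intensity (y axis) in KO RNA and in WT RNA of the same array for 8 member probes, 1 line per array, coloured by pair. Lines rise to the WT side on 11 of 12 arrays for H2-D1, H2-Q7 and Tap2 and on all 12 for Tapbp, whereas for Cd74 they run both ways, 6 above and 6 below.

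Among the Q-region genes, which include those of the non-classical Qa-2 molecules, 4 of 11 probes were lower, where 2.88% of all tested probes were. Their median ratio was -0.45. H2-Q7, a Qa-2 gene, had log2 levels of 13.88, 14.26 and 14.97 in KO RNA, against 13.92, 14.76 and 15.41 in WT RNA, and a ratio of -0.47 ± 0.11 (adjusted p = 0.0356), below 0 on 11 of 12 arrays. H2-Q2 gave -0.48 ± 0.11 (adjusted p = 0.0323) and the called H2-Q1 probe -0.47 ± 0.11 (adjusted p = 0.0283), each also on 11 of 12 arrays. H2-Q5 gave -0.45 ± 0.12, below 0 on 9 of 12 arrays, with an adjusted p just under the threshold. Class I genes are near copies of each other, and the file lists some probes under several: the called H2-Q1 probe under H2-Q1 and H2-Q2, and a probe named H2-Q10 under H2-Bl, H2-Q1, H2-Q10 and H2-Q6. The gene behind such a signal is uncertain, and probes of this family are not independent of each other.

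The 4 H2-Q10 probes disagreed with each other. H2-Q10 encodes a secreted class I molecule made mostly by liver. The probes at chr17:33571803-33571862 and chr17:33574106-33574165 (mm7) gave -0.53 and -0.45 (adjusted p = 0.0534 and 0.0549), like H2-Q1 and H2-Q2. The other two, at chr17:33574366-33574425 and chr17:33575263-33575322, gave -0.08 ± 0.11 and 0.07 ± 0.22. The last of them averaged 0.83, 0.08, -0.47 and -0.73 in pairs A to D. Its F test between pairs had the smallest p of all members (0.00549) but did not pass (adjusted p = 0.195).

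Of the T-region genes, H2-T23 fell and 5 other probes did not pass. H2-T23 encodes Qa-1, which shows leader peptides of other class I chains to inhibitory receptors of NK cells. It had log2 levels of 14.37, 14.69 and 15.35 in KO RNA, against 14.50, 15.11 and 15.66 in WT RNA, with a ratio of -0.41 ± 0.11 (adjusted p = 0.0433), below 0 on 11 of 12 arrays. Its 4 pair means were the closest to each other among the called probes, at -0.40, -0.43, -0.39 and -0.40 in pairs A to D. H2-T22, a ligand of some gamma delta T cells, gave -0.25 ± 0.069 at one probe (adjusted p = 0.0567) and -0.10 ± 0.091 at the other. H2-T10 and both H2-T24 probes lay between -0.10 and -0.03.

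The M-region genes showed no call. The 5 tested probes had a median of -0.05, and H2-M3, which presents formylated bacterial peptides, gave -0.17 ± 0.11 and -0.05 ± 0.097. H2-M10.1, H2-M10.4, H2-M10.5, H2-M10.6, H2-M11, H2-M9 and the T-region gene H2-T3 were not well above background on enough arrays to be tested. Of these, H2-M10.1 reached that mark on 3 arrays in KO RNA and 0 in WT RNA and H2-M11 on 2 in KO RNA and 1 in WT RNA. The other 5 reached it on 0 arrays in both. H2-M10 genes are known from neurons of the vomeronasal organ.

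The highest class I ratio was at an H2-Bl probe, which was not called. That probe (0.55 ± 0.34, adjusted p = 0.406) had log2 levels of 6.15, 7.03 and 9.08 in KO RNA, against 6.09, 6.44 and 8.54 in WT RNA. It was well above background on 10 arrays in KO RNA and on 7 in WT RNA. Its 4 ratios in pair A were 1.26, 1.30, 1.51 and 2.85, those of pair B -0.33, 2.35, -0.68 and 0.25, those of pair C 0.20 and -1.57, and those of pair D -0.02 and -0.04. The high ratios were thus the 4 of pair A and replicate 6 of pair B. A neighbouring probe whose position overlaps it gave 0.37 ± 0.23. The other H2-Bl probe, which overlaps neither of them, gave -0.46 ± 0.13 (adjusted p = 0.0608), so the probes of this gene disagreed in sign.

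Of the peptide transport and loading genes, Tap2 and Tapbp fell and Tap1 did not pass. Tap2 (chr17:32294682-32295269, mm7) had log2 levels of 9.82, 10.39 and 10.83 in KO RNA, against 10.28, 10.80 and 11.20 in WT RNA. Its ratio of -0.40 ± 0.079 (adjusted p = 0.0161) was below 0 on 11 of 12 arrays and was the member with the smallest p. It was also the only member called with any 1 of the 12 arrays left out. Tap1, the other chain of the same transporter, had levels of 7.83, 8.24 and 8.99 in KO RNA, against 7.75, 8.45 and 8.76 in WT RNA, and a ratio of -0.09 ± 0.097 (adjusted p = 0.674). The difference between Tap2 and Tap1 was not tested. Tapbp (chr17:32007107-32007166) had levels of 12.26, 12.78 and 13.11 in KO RNA, against 12.44, 13.20 and 13.87 in WT RNA. Its ratio was -0.46 ± 0.10 (adjusted p = 0.0279) and was below 0 on all 12 arrays, from -1.21 to -0.03. A second Tapbp probe, at chr17:32004181-32004240, gave -0.16 ± 0.063 (adjusted p = 0.170), so the size of the fall depended on the probe.

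The immunoproteasome subunits did not pass the test. Psmb9 had log2 levels of 10.67, 11.78 and 13.03 in KO RNA, against 11.32, 11.77 and 12.84 in WT RNA, with a ratio of -0.21 ± 0.18 (adjusted p = 0.558). Its pair means were -0.15, 0.30, -0.83 and -0.60 in pairs A to D. The Psmb8 probes gave -0.13 ± 0.14 and -0.11 ± 0.15, each below 0 on 6 of 12 arrays, and the brighter had levels of 11.91, 12.75 and 13.86 in KO RNA, against 12.28, 13.02 and 13.55 in WT RNA. Psmb10 gave -0.07 ± 0.094. The 8 subunits of the constitutive proteasome on the fixed list had 0 calls and a median of -0.01, with Psmb6 at 0.19 ± 0.068 (adjusted p = 0.130). The 8 measured class I folding and trimming genes, among them the chaperone Calr (0.09 ± 0.12) and the peptide trimmer Erap1 (0.27 ± 0.099, adjusted p = 0.142), had 0 calls and a median of 0.03.

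The class I falls were uneven over the arrays. All 10 called probes were below 0 on replicates 1, 3, 6, 7, 8, 9 and 11, and 9 of them on replicates 4, 10 and 12. On replicate 2, 5 of the 10 were below 0, and on replicate 5, 4 of them were. Replicate 7 held the lowest ratio of 9 of the 10 probes. The median ratio of the 10 was -1.09 on replicate 7, against 0.03 on replicate 5 of the same pair. By pair, the median over the 34 class I probes was -0.40, -0.21, -0.31 and -0.42 in pairs A to D.

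Class II transcripts were well above background, and none passed the test of KO over WT. Cd74, the invariant chain, had log2 levels of 14.44, 15.37 and 15.89 in KO RNA, against 13.78, 15.16 and 16.51 in WT RNA, with a ratio of 0.05 ± 0.18 (adjusted p = 0.922), above 0 on 6 arrays and below on 6. H2-Aa, the alpha chain, had levels of 12.65, 12.99 and 13.37 in KO RNA, against 11.41, 13.03 and 13.32 in WT RNA at its brighter probe, and a ratio of 0.13 ± 0.16 (adjusted p = 0.713). Its other probe gave 0.17 ± 0.18. H2-Ab1, the beta chain, had levels of 14.82, 15.43 and 15.79 in KO RNA, against 14.50, 15.28 and 15.94 in WT RNA at its brightest probe, whose ratio was -0.01 ± 0.18 (adjusted p = 0.982). The 3 other H2-Ab1 probes gave 0.03, 0.07 and 0.12. Over the 15 class II probes the adjusted p ran from 0.279 to 0.995, and in pairs A and B alone 1 H2-DMb2 probe was called higher.

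The remaining class II members did not pass either. H2-Eb1, another beta chain, gave 0.04 ± 0.18. The peptide exchange genes gave 0.04 ± 0.10 (H2-DMa), 0.25 ± 0.12 (H2-DMb1) and 0.21 ± 0.14 and 0.21 ± 0.13 (both H2-DMb2 probes). H2-DMb1 was the class II ratio furthest from 0 (adjusted p = 0.279), with log2 levels of 14.30, 14.79 and 14.98 in KO RNA, against 13.37, 14.51 and 14.95 in WT RNA. H2-Oa, which holds H2-DM in check, gave 0.02 ± 0.18 and 0.05 ± 0.14, and H2-Ob 0.00 ± 0.036 near the background. H2-Ea was well above background on 3 arrays in KO RNA and on 3 in WT RNA and was not tested. Mice of the MHC b haplotype, which the C57BL strains carry, are known to make no H2-Ea. H2-Eb2, which the file carries under a clone name and the rule leaves out, gave -0.02 ± 0.046 and 0.03 ± 0.033.

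The class II ratios varied over the pairs of tumours, although no probe passed the test of that difference. The median over the 15 probes was 0.48, 0.08, -0.21 and -0.27 in pairs A to D. Pairs A and D, which hold the highest and lowest of these medians, were set against each other outside the planned tests. Several of the 15 probes read the same gene, so the counts that follow only describe the values. At 9 of the 15 probes each pair A array lay above each pair D array, where 11.8% of all probes do so. No probe had each pair D array above each pair A array, where 9.09% of all probes do. In the F test between the 4 pairs, 0 of 15 passed (smallest adjusted p = 0.312) and 3 had an unadjusted p under 0.05. Of all 35349 probes in that test, 4446 had an unadjusted p under 0.05 and 0.368% passed. Age, slide, the sex of the WT mouse and the dyes differ with the pair, and the part of each was not tested. The pair medians and the counts of arrays hold no correction for dye, and pair D had KO RNA in Cy3 only.

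Pair A was itself not uniform. Its 4 array medians were 0.76 and 0.88 on replicates 1 and 2 and 0.07 and 0.03 on replicates 3 and 4. On replicates 1 and 2 the WT levels of Cd74 were 13.78 and 14.44, the lowest of the 12, whereas its KO levels there were 14.91 and 15.34, inside the range of the other arrays. The WT levels of H2-Aa on those arrays were 11.41 and 12.11, against KO levels of 12.70 and 13.24. The Cd74 ratio was 1.13 and 0.90 on these arrays and 0.14 and 0.40 on replicates 3 and 4. Without pair A, the ratio was -0.23 for Cd74 and -0.10 for H2-Aa, neither of which passed (adjusted p = 0.555 and 0.703).

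Ciita, the regulator that class II genes depend on, did not pass the test. At its 1 probe the ratio was 0.45 ± 0.16 (p = 0.0135, limma adjusted p = 0.115), above 0 on 10 of 12 arrays. The mean was 0.72 in pair A, 0.56 in pair B and 0.73 in pair C but -0.49 in pair D, and the adjusted p between pairs was 0.465. Without pair D it was called higher (0.64, adjusted p = 0.0355), the only alternative run that gave a call. Of 12 class II regulators on the fixed list, 1 fell, the myeloid and B cell factor Irf8 (-0.43 ± 0.11, adjusted p = 0.0470), and the list median was -0.01. Irf8 was called at 1 of its 2 tested probes, and 2.88% of all tested probes were called lower. The promoter-binding factors Nfyb (-0.21 ± 0.070, adjusted p = 0.0997) and Nfyc (0.14 ± 0.047, adjusted p = 0.109) and the ubiquitin ligase Marchf8 (0.25 ± 0.10, adjusted p = 0.175), which removes class II from the surface, did not pass.

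Of 8 endosomal proteases and processing enzymes on the class II list, 2 fell and 0 rose, where 2.88% of all tested probes were called lower and 2.83% higher. Ctsd (cathepsin D), an aspartic protease of lysosomes in most cells, had a ratio of -0.93 ± 0.14 (adjusted p = 0.00498), below 0 on 12 of 12 arrays. Ctsl gave -0.28 ± 0.064 (adjusted p = 0.0297). Ctss, the protease that trims Cd74 in antigen-presenting cells, gave -0.40 ± 0.17 (adjusted p = 0.209), and Lgmn -0.36 ± 0.15 (adjusted p = 0.188). The list median was -0.23. Among 6 measured co-stimulatory genes none passed, with Cd83 at 0.75 ± 0.24 (adjusted p = 0.0906, above 0 on 11 arrays) and Cd274, which encodes PD-L1, at -0.41 ± 0.17 (adjusted p = 0.189). The class I-like lipid-presenting genes Cd1d1 (-0.09 ± 0.17) and Cd1d2 (-0.00 ± 0.058) and the metabolite-presenting Mr1 (0.01 ± 0.15) did not pass.

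Interferons are the main inducers of both MHC classes. Genes were called lower on both interferon lists, 2 on each, where 2.88% of all tested probes were called lower. Of 15 genes of the interferon gamma pathway, 2 fell: the receptor chain Ifngr1 (-0.61 ± 0.094, adjusted p = 0.00499, below 0 on 12 of 12 arrays) and the kinase Jak2 (-0.42 ± 0.096, adjusted p = 0.0295). Jak2 was called at 1 of its 2 tested probes. The second receptor chain Ifngr2 (-0.28 ± 0.099, adjusted p = 0.122) and the induced GTPase Gbp2 (0.30 ± 0.12, adjusted p = 0.181) did not pass, and the list median was 0.01. Of 14 genes of the interferon alpha and beta response, 2 fell, the deconjugating protease Usp18 (-0.63 ± 0.070, adjusted p = 0.00103) and Ifit3 (-0.59 ± 0.13, adjusted p = 0.0258). Ifit3 was called at 1 of its 2 tested probes. All 14 ratios of that list were below 0, with a median of -0.22, among them Oas1a (-0.50 ± 0.15, adjusted p = 0.0743) and Stat2 (-0.40 ± 0.16, adjusted p = 0.166).

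**Figure D3:**
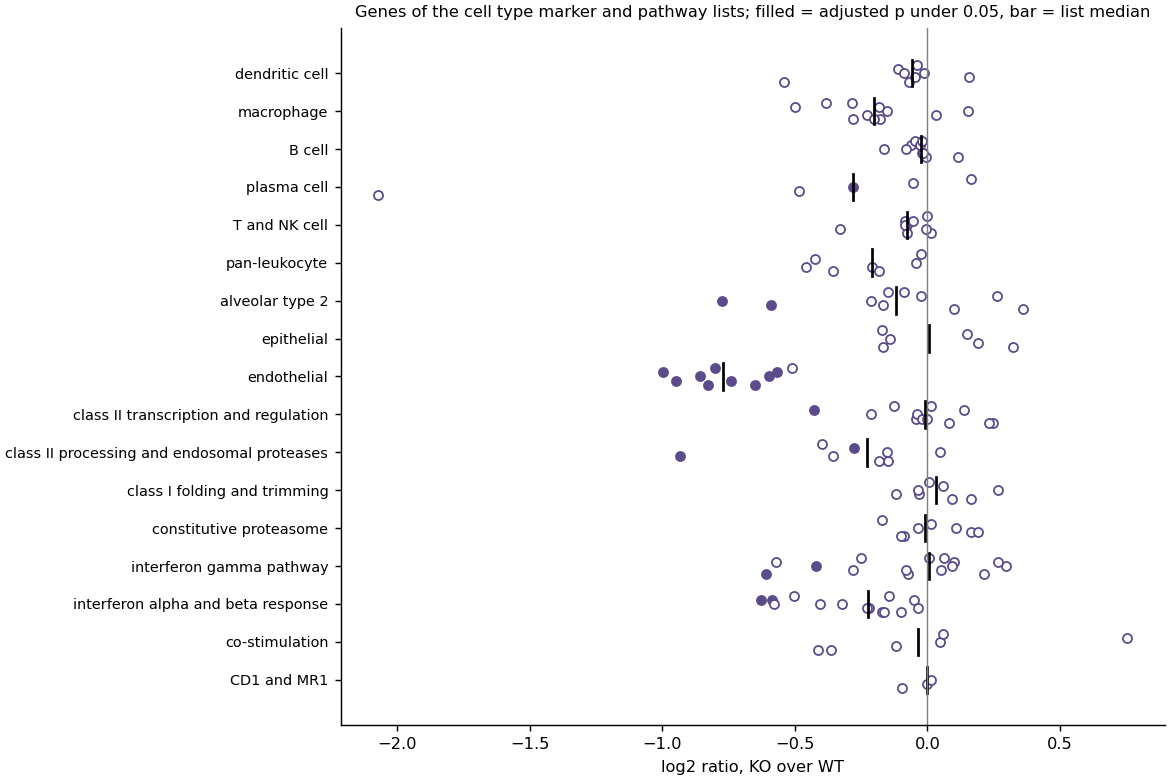
Log2 KO over WT ratio (x axis) of each measured gene of the cell type marker and pathway lists (rows), 1 point per gene at its brightest probe, filled where the limma adjusted p was under 0.05, with the list median as a bar. Endothelial genes have the lowest median, -0.77 with 9 of 10 filled, and the dendritic, macrophage, B cell and T and NK cell lists have no filled point.

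Markers of cell types that carry MHC molecules are given beside these results. Of all tested probes, 2.88% were called lower and 2.83% higher by the same rule. Endothelial cells express class I strongly, and 9 of 10 endothelial markers were lower in KO tumours, with a median ratio of -0.77. Their summed linear level was 17800 to 27300 in KO RNA, against 30900 to 59600 in WT RNA, without overlap. Pecam1 (-0.65 ± 0.060) and Cdh5 (-0.83 ± 0.074) were lower on 12 of 12 arrays. Of the pan-leukocyte list 0 of 7 passed (median -0.21, with Ptprc at -0.18 ± 0.14), and its summed level was 17900 to 28700 in KO RNA, against 16500 to 30100 in WT RNA. Whether the smaller endothelial signal has a part in the class I ratios was not tested.

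Of the professional antigen-presenting cells, dendritic markers had 0 of 8 calls (median -0.06), macrophage markers 0 of 11 (median -0.20) and B cell markers 0 of 10 (median -0.02). Ratios were below 0 for 7, 9 and 9 of these genes. With 2.88% of all tested probes called lower and 2.83% higher, 0 calls in lists this short do not show that these cells were unchanged. The integrin Itgax, found on dendritic cells and lung macrophages, gave -0.54 ± 0.15 (adjusted p = 0.0541). Csf1r, the macrophage growth factor receptor, gave -0.20 ± 0.11, and the B cell gene Cd79a -0.05 ± 0.031. Summed levels overlapped for each list: 3280 to 5420 in KO RNA, against 3790 to 9450 in WT RNA, for dendritic markers, 15700 to 56100 in KO RNA, against 27800 to 70300 in WT RNA, for macrophage markers, and 3190 to 5370 in KO RNA, against 2570 to 6480 in WT RNA, for B cell markers. T and NK cell markers had 0 of 9 calls and a median of -0.08. Of 5 plasma cell markers Prdm1 fell (-0.28 ± 0.051, adjusted p = 0.0112), and Jchain, at -2.07 ± 0.57, did not pass (adjusted p = 0.0554). Of 10 alveolar type 2 markers, 2 fell, Lamp3 (-0.78 ± 0.19) and Etv5 (-0.59 ± 0.14), with 7 ratios below 0 and a list median of -0.12. Lamp3 was called at 2 of its 4 tested probes and Etv5 at 2 of 2. The next by p were above 0 and did not pass: Abca3 (0.36 ± 0.11, adjusted p = 0.084, above 0 on 10 arrays) and Lyz2 (0.26 ± 0.27, adjusted p = 0.643). Abca3 was called at 1 of its 4 tested probes, but not at this one. The type 2 list median was above 0 on all 6 arrays with KO RNA in Cy5 (0.01 to 0.56) and below 0 on all 6 with KO RNA in Cy3 (-1.21 to -0.10). The part of these cells in the class II values was not tested.

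The remaining names of the region did not pass the test. H2-Ke2, now named Pfdn6 and a prefoldin subunit, gave 0.00 ± 0.11, and H2-Ke6, a hydroxysteroid dehydrogenase, gave -0.17 ± 0.11 (adjusted p = 0.437).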

How the data were processed

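Total RNA of KO and WT lung tumours was labelled with Cy3 or Cy5 and hybridised together on 12 Agilent arrays (design 014868). Per the file headers, Agilent's Feature Extraction software (version 10.1.1.1) gave the spot intensities and local backgrounds, which are not normalized. The deposited flags mark spots well above background, saturated or outlying. The series matrix holds the authors' log2 ratios, for which the submitters' processing notes name limma. They matched loess without background correction (r at least 0.9999 per array). Here, mean intensities were corrected by normexp (offset 50), with the array's median background where a local background was flagged, and normalized by loess within arrays (R 4.3.3, limma 3.58.1, statmod 1.5.0, data.table version 1.17.8). Ratios were turned to KO over WT on every array and fitted with a dye term and a random block for the pair (estimated within-pair correlation 0.079), with Benjamini-Hochberg adjustment over 35562 probes. An F test compared the pairs. Levels are log2 intensities after quantile normalization of average intensity.

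Values in full are given for the classical genes, B2m, Tap1, Tap2, Psmb8, Psmb9, the class II chains, Cd74, Ciita, each called member and the uncalled class I and class II ratios furthest from 0. H2-Bl was added after its values were seen. Of other lists, up to 4 genes of smallest p are named, each at its brightest kept probe. The members and lists were chosen with earlier results of these data known. The fit was tested on simulated data.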

Additional observations from a re-analysis of the deposited data

Results flagged for a closer look

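The class II probes had a median ratio above 0 on all 4 arrays of pair A (0.033 to 0.88, mean 0.436) and below 0 on both arrays of pair D (-0.365 to -0.192, mean -0.278). The means differed by 0.714. For H2-Aa, H2-Ab1 and Cd74 as a list, the array medians averaged 0.551 in pair A and -0.654 in pair D, a difference of 1.205. The difference in these medians was not tested. Among the other lists, array medians were of opposite sign in pairs C and D for alveolar type 2 markers (mean 0.284 in pair C and -0.808 in pair D, difference 1.092), T and NK cell markers (0.084 and -0.138, difference 0.222) and class II regulators (0.027 and -0.193, difference 0.220). They were of the opposite order for CD1 and MR1 genes (0.247 in pair D and -0.266 in pair C, difference 0.513) and constitutive proteasome genes (0.220 in pair D and -0.215 in pair C, difference 0.436). Pair C had KO RNA in Cy5 on both arrays and pair D in Cy3. Over all pairs, the alveolar type 2 median was above 0 on 6 of 6 arrays with KO RNA in Cy5 (0.01 to 0.557) and below 0 on 6 of 6 with KO RNA in Cy3 (-1.208 to -0.099), the swapped arrays of pairs A and B included. The T and NK cell median was above 0 on 5 of 6 Cy5 arrays and 1 of 6 Cy3 arrays, and the constitutive proteasome median on 1 of 6 and 5 of 6. For CD1 and MR1 genes it was above 0 on 2 of 6 and 4 of 6, and for class II regulators on 2 of 6 and 3 of 6. None of these differences was tested.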

How the results depend on the processing

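The fits were repeated under the alternatives fixed at the outset and, added after seeing the data, with 1 probe per gene, which gave 8 class I and processing calls and 0 class II calls. Over all probes, 2032 were called in the fit reported. The number was 486 under median centring, 3269 with arrays independent, 3228 with the block correlation from red over green ratios, 51 with pair means in place of arrays, 1256 in pairs A and B only, 627 with trend and robust variances, 578, 1192, 1183 and 1268 without pairs A, B, C and D, 0, 1 and 0 within slides 1, 2 and 3, and 3741 and 448 at adjusted p under 0.10 and 0.01. The 10 class I and processing calls became 0 under median centring, 17 with arrays independent, with slide as the block or with the red over green correlation, 1 with pair means, 1 in pairs A and B only, 0 within each slide and 0 with trend and robust variances. They became 0, 5, 5 and 0 without pairs A, B, C and D, and 17 and 0 at adjusted p under 0.10 and 0.01. Class II gave 1 call in pairs A and B only (H2-DMb2, higher) and 0 in the others. Leaving out single arrays gave 1053 to 2686 calls over all probes, 1 to 19 for class I and processing and 0 for class II. The class II median was 0.48 within slide 1. The F test between pairs gave 366 calls under median centring, against 130 (136 with series matrix values). The cause of these changes was not tested.

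The 10 called probes kept their sign throughout. The alternatives were followed for single probes only for the members given with full values. Among those, the ratios that turned, none of them past the threshold, were H2-Ab1 (0.074 under median centring, 0.0089 with arrays independent or slide as the block, 0.0021 with the red over green correlation, 0.22 in pairs A and B only, 0.44 within slide 1, 0.0011 with array weights, 0.0085, 0.0572 and 0.15 without pairs B, C and D), Cd74 (-0.0352 with pair means, -0.12 and -0.33 within slides 2 and 3, -0.23 without pair A), H2-Aa (-0.22 within slide 3, -0.10 without pair A), Psmb8 (0.0003 in pairs A and B only, 0.0755 within slide 2), Psmb9 (0.0753 in pairs A and B only, 0.30 within slide 2), H2-Bl (-0.36 within slide 3, -0.0013 without pair A) and H2-DMb1 (-0.0002 within slide 3). With single arrays left out H2-Ab1 ran from -0.12 to 0.0659 and Cd74 from -0.048 to 0.14. Each ratio pairs KO with WT RNA of the same array, so pairing is part of every fit. Fewer probes were well above background on slide 3 (59.0% to 72.2%) than on slides 1 and 2 (81.7% to 89.6%).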
